A study of Danaus plexippus with 36 samples.

Results

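The legs of 6 gravid female monarch butterflies (Danaus plexippus) were compared with the legs of 6 males. The comparison used every leg library of the study, 12 of the 35 libraries with counts that were analysed, chosen by the tissue and sex in the labels and not by any measured value. All 12 animals were adults caught in the field, and antennae and proboscis were collected from the same animals. Females 18, 25 and 27 and males 13, 15 and 20 formed batch 1, and females 1, 3 and 11 and males 2, 12 and 16 formed batch 2. The labels do not say which leg segments or which of the leg pairs were taken, nor the age, mating state or generation of the animals. Every female was gravid and no female that was not gravid was included, so a difference of sex and one of reproductive state cannot be told apart. What the batches were (dates, sites or sequencing runs) is not given in the sources used here.

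Butterfly legs carry contact chemosensory hairs, mostly on the tarsi, as well as muscle, cuticle, nerve and haemolymph cells. A gravid female drums on a leaf with her forelegs and tastes it before she lays an egg, and monarch females lay on milkweeds. In nymphalid butterflies such as the monarch the forelegs are reduced in both sexes and differ in form between females and males. Gustatory receptors and other chemosensory proteins are the gene families usually studied in this setting, and the study set out to compare such receptors between tissues and sexes.

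Genes were identified only by DPOGS gene model identifiers, and 0 of them matched the gene name table that was used. The families above and the markers of leg cell types could therefore not be looked up, so the labelled tissue was not checked against its defining genes and no role is given for any gene. At most 2 identifiers that were higher and 2 that were lower in females are printed, taken by lowest p among genes that averaged 1 CPM or more in one of the sexes. CPM stands for counts scaled to a library total of 1000000, here after the totals were corrected by TMM (trimmed mean of M values) within each tissue. CPM was not divided by gene length, so levels are compared between libraries and not between genes. In legs, which hold many cell types, a change in the share of a cell type and a change in RNA per cell cannot be told apart.

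The leg libraries held 11739458 to 15189390 counts in batch 1 and 35632691 to 116578024 in batch 2. Depth overlapped between the sexes, with 14190237 to 73358299 counts in females and 11739458 to 116578024 in males. Batch was the larger difference between leg libraries: 4873 of 11804 genes tested (41.3%) passed an adjusted p of 0.05 between batches, and batch took a median of 33.5% of a gene's variance in log2 CPM. Sex took a median of 2.65% after batch. A term takes some share of the variance even with no difference. That share was not computed, so the 2.65% is no measure of a sex effect. The first principal component, with 54.8% of the variance, separated the batches. Within a batch, log2 CPM had a median correlation across genes of 0.934 for pairs of libraries of one sex and 0.935 for pairs of unlike sex. The library most like a given one came from the same batch in 12 of 12 cases and had the same sex in 5 of 12. These correlations are across genes, which are not independent replicates.

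**Figure D1:**
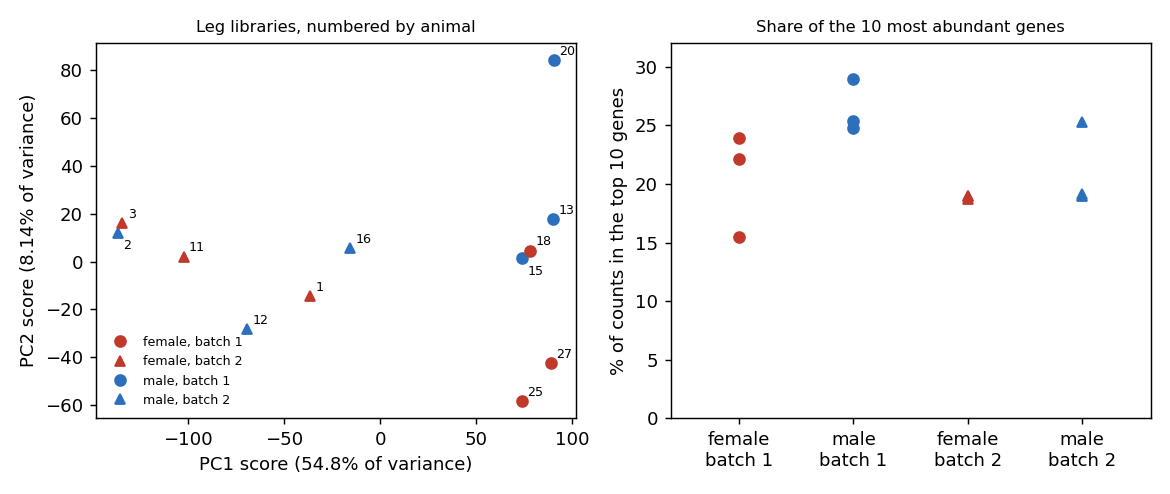
Left, scores of the 12 leg libraries on the first 2 principal components of log2 CPM, numbered by animal. Batch 1 (circles) lies to the right and batch 2 (triangles) to the left on the first component (54.8% of variance), while females (red) and males (blue) mix along it. Right, the percent of each library's counts in its 10 most abundant genes, which within each batch was higher in every male than in every female.

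Between the sexes, 4 of 11804 genes differed at an adjusted p below 0.05 (0.0339%) in a fit with sex and batch as terms. Females had the higher level of 3 (0.0254%) and the lower level of 1 (0.00847%). Of all genes tested, 733 (6.21%) had an unadjusted p below 0.05, where 5% is what no difference would nominally give. Of the 733, 361 (3.06%) were higher and 372 (3.15%) were lower in females. The same test gave 1.10% in proboscis, 3.10% in antennae and 9.64% in legs of batch 1 alone, so 6.21% is not read as an excess. All 4 called genes had libraries of the sexes that did not overlap, and all had the same direction with an unadjusted p below 0.05 in batch 1 and in batch 2. Of all genes tested, 42 had libraries that did not overlap and 56 had such a p in the same direction in both batches. The calls came from a fit of these same libraries, so this describes the called genes and is no further test of them. The count depended on the tool: edgeR's newer estimate of dispersion called 11 genes (0.0932%) and DESeq2 called 68, which included the 4. It also depended on single animals. Without male 2 edgeR called 0 genes, with 1113 at an unadjusted p below 0.05, and without male 15, female 25 or male 16 a single gene was.

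**Figure D2:**
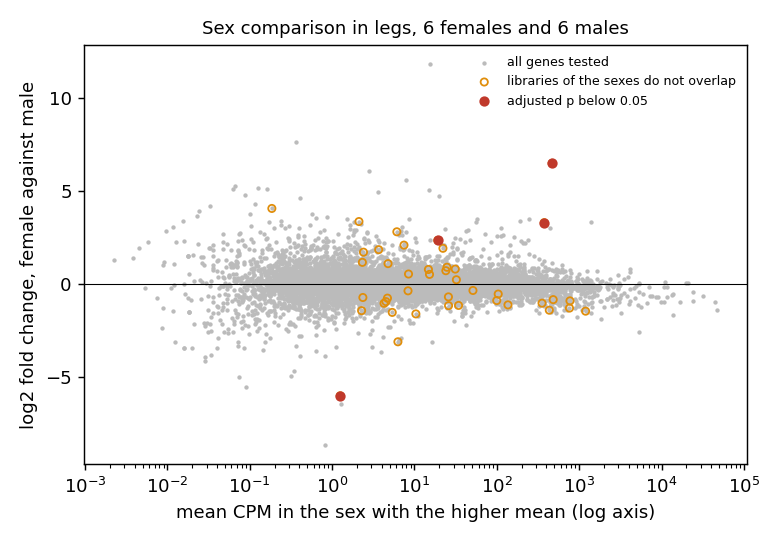
Each point is 1 of 11804 genes, with the mean CPM in the sex with the higher mean (log axis) against the fitted log2 fold change of female against male legs. The 4 called genes are filled in red, and the 42 genes whose libraries did not overlap between the sexes are ringed.

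DPOGS209204 showed the lowest p of the leg comparison. In females its level was 34 CPM in female 27, 69.6 in female 18, 303 in female 1, 410 in female 25, 613 in female 11 and 1387 in female 3. In males it was 0.676 CPM in male 13, 2.29 in male 20, 3.25 in male 15, 5.44 in male 12, 7.70 in male 2 and 11.5 in male 16. The lowest female lay above the highest male, although the females differed 40.8-fold among themselves. The mean was 470 ± 499 CPM in females and 5.15 ± 3.98 in males (SD, n = 6 each). Without female 3, the highest, the female mean was 286 CPM. The fitted log2 fold change was 6.47 ± 0.72 (SE; 95% interval 4.91 to 8.02), or 88.4-fold, with an adjusted p of 0.00632 by edgeR's quasi-likelihood test. It was 6.39 in batch 1 and 6.55 in batch 2. The level also differed between batches, higher in batch 2 by 2.08 on the log2 scale (adjusted p = 0.0150). Leaving out single animals gave log2 fold changes of 5.76 to 6.68, and among these 12 fits the adjusted p was above 0.05 only without male 2 (0.0537). With all animals kept, the call was lost without the batch term (adjusted p = 0.0936).

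DPOGS211120 was next, with a narrow range in males. Its level in female legs ran from 8.92 CPM in female 11 to 27.4 in female 1, with a median of 19.1. In male legs it ran from 3.05 CPM in male 20 to 4.82 in male 12, with a median of 3.67. Every female lay above every male. The means were 19.2 ± 7.29 and 3.8 ± 0.645 CPM (SD, n = 6 each). The log2 fold change was 2.32 ± 0.30 (95% interval 1.68 to 2.96), or 5.0-fold, with an edgeR adjusted p of 0.0138, and it was 2.51 in batch 1 and 2.14 in batch 2. The fold change stayed between 2.13 and 2.50 on the log2 scale as each animal was left out. The call was lost without male 15 (adjusted p = 0.0551), female 25 (0.0527), male 16 (0.0604) or male 2 (0.0546). It was also lost when the sex difference was taken from the fit of all tissues (0.238). That fit shares scaling, spread and the batch term over tissues.

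The third gene called higher in females is described without its identifier. Female levels ran from 106 CPM in female 18 to 631 in female 1, and male levels from 6.53 CPM in male 20 to 60.2 in male 12, so the sexes did not overlap. The means were 376 ± 208 and 36.7 ± 17.8 CPM (SD, n = 6 each). The log2 fold change was 3.27 ± 0.45 (95% interval 2.30 to 4.25; edgeR adjusted p = 0.0225), with 3.01 in batch 1 and 3.54 in batch 2. It was called in 6 of the 12 fits that each left out 1 animal and in 10 of 12 other settings, with adjusted p-values up to 0.0996.

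DPOGS203388 was the called gene with the lower level in females. Female legs held 0 counts in animals 11, 18, 25 and 27, 1 count in female 1 and 4 counts in female 3. Male legs held 5 counts in male 20, 6 in male 15, 11 in male 13, 31 in male 16, 165 in male 12 and 190 in male 2, or 0.544 to 3.23 CPM. Every male was above every female, whose highest level was 0.0928 CPM in female 3. The male mean was 1.25 ± 1.00 CPM (SD, n = 6), and 0.859 without male 2, the highest. The fitted log2 fold change was -6.04 ± 0.90 (95% interval -7.98 to -4.09; edgeR adjusted p = 0.0384). A fitted value against libraries at 0 depends on the small count that the fit adds. In batch 1, where the 3 females held no count, the level was at least 11.1-fold lower in females, taking 3 counts summed over these females as the floor. The call was kept in 1 of the 12 fits without an animal, the fit without female 3, and in the other 11 the adjusted p was 0.0587 to 0.135. With all animals kept, it was lost without the batch term (adjusted p = 0.145) and in the fit of all tissues (0.354). A filter on the leg libraries alone removed the gene before testing.

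DPOGS214501 had the next lowest p among genes lower in females and did not pass the threshold (edgeR adjusted p = 0.0965). Its level ran from 6.89 CPM in female 3 to 13.7 in female 18 and from 21.4 CPM in male 2 to 31.4 in male 13. No female reached the lowest male. The means were 11.4 ± 2.39 and 25.9 ± 4.54 CPM (SD, n = 6 each), a log2 fold change of -1.19 ± 0.21 (95% interval -1.64 to -0.74), with -1.11 in batch 1 and -1.28 in batch 2. DESeq2 called it, with an adjusted p of 5.89e-05. The gene with the identifier that follows it had a log2 fold change of -1.15 ± 0.20 and the same adjusted p, at 43.2 to 75.0 CPM in females and 88 to 206 in males. Whether the 2 genes are neighbours or share reads was not tested.

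**Figure D3:**
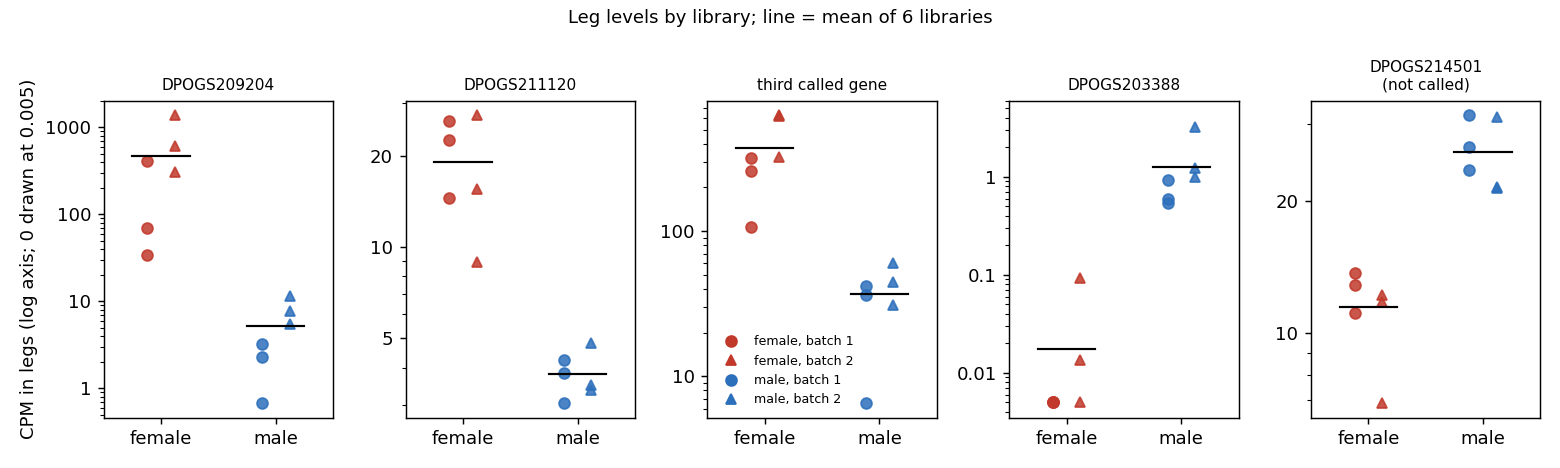
CPM in each leg library on log axes that differ between panels, by sex and batch, for the 4 called genes and for DPOGS214501, which was not called. Lines are means of 6 libraries, and a level of 0 is drawn at 0.005. In every panel the female and male libraries do not overlap.

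The sex difference was also measured in the other appendages of these animals. Of the 4 called genes, 3 had the same direction in antennae and 4 in proboscis. By edgeR's quasi-likelihood test, 1 in antennae and 3 in proboscis also had an unadjusted p below 0.05 in that direction. The 4 in proboscis include DPOGS211120, which showed almost no difference there. Its log2 fold change was 0.0819 in proboscis and 0.747 in antennae, against 2.32 in legs. How many of all genes tested had the same direction is not given here. The appendages came from the same animals, so this describes the called genes and is no separate test of them. In neither tissue did edgeR call a gene between the sexes, with 366 genes (3.10%) in antennae and 130 (1.10%) in proboscis at an unadjusted p below 0.05. The test of the difference itself, the sex effect in legs minus that in antennae, called 1 gene of 11804 (0.00847%), which was DPOGS209204. Such genes numbered 440 (3.73%) by the unadjusted p, and DESeq2 called 18. For legs minus proboscis edgeR called 0 genes, DESeq2 called 4, and 145 (1.23%) had an unadjusted p below 0.05.

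DPOGS209204 was present in the antennae of both sexes. The 6 females had antennal levels of 33.3 to 488 CPM and the 5 males had 146 to 2510 CPM, and the sexes overlapped. The antennal log2 fold change was -1.54 (unadjusted p = 0.00900, adjusted p = 1). The sex effect in legs exceeded that in antennae by 8.01 ± 1.37 on the log2 scale (edgeR adjusted p = 0.0176), and by 7.87 with the animal as a block (adjusted p = 0.0302). Without animal 11, 12, 15 or 16 the adjusted p of this difference was 0.0515, 0.0560, 0.0740 and 0.108, at differences of 7.47 to 8.19. Male legs, at 0.676 to 11.5 CPM, were thus below every antennal library, while female legs, at 34 to 1387 CPM, overlapped the antennae of both sexes. These CPM were scaled within each tissue and not between tissues. In proboscis the level was low in both sexes, 0.154 to 24.1 CPM in females and 0 to 0.671 in males, with an overlap. There the log2 fold change was 4.55 (unadjusted p = 0.00857, adjusted p = 1), and the leg effect differed from it by 0.26 ± 1.67 (adjusted p = 1). With the animal as a block that difference was 0.95.

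DPOGS203388 had counts in males and none in females outside the legs. No count was seen in the antennae or the proboscis of any of the 6 females, while 3 of 5 male antennae and 5 of 6 male proboscis libraries held counts, 104 and 397 in all. The filter before testing covered all tissues, and this gene passed it only through male libraries. A filter on the leg libraries alone removed it. Its male counts in antennae and proboscis are therefore part of how it came to be tested and are no separate support. The sex effect in legs differed from that in antennae by 3.29 ± 2.13 and from that in proboscis by 2.92 ± 1.71 on the log2 scale, with adjusted p-values of 1. With the animal as a block these differences were 2.60 and 2.68. All are fitted values that depend on the small count added for groups at 0. Some antennal and proboscis libraries were shallow, so counts of 0 in them say little. In female 11, 2 counts of DPOGS211120 in antennae were 3.23 CPM, and 1 count of DPOGS214501 in proboscis was 0.724 CPM. DPOGS211120 overlapped between the sexes in both other tissues, with 0 to 18.6 CPM in female and 1.93 to 8.65 in male antennae, and 5.82 to 13.3 in female and 4.14 to 12.9 in male proboscis. Its leg effect exceeded that in proboscis by 2.28 ± 0.75 on the log2 scale (unadjusted p = 0.00463, adjusted p = 1) and that in antennae by 1.53 ± 0.78 (unadjusted p = 0.0562, adjusted p = 1). These SEs and p-values do not use the pairing of tissues by animal. With the animal as a block the differences were 2.17 and 1.65. DPOGS214501 overlapped between the sexes in antennae, where 4 of 5 males and 1 of 6 females held no count, and in proboscis. The third called gene had log2 fold changes of 1.65 in antennae (unadjusted p = 0.179) and 1.56 in proboscis (0.0150), both with an adjusted p of 1.

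**Figure D4:**
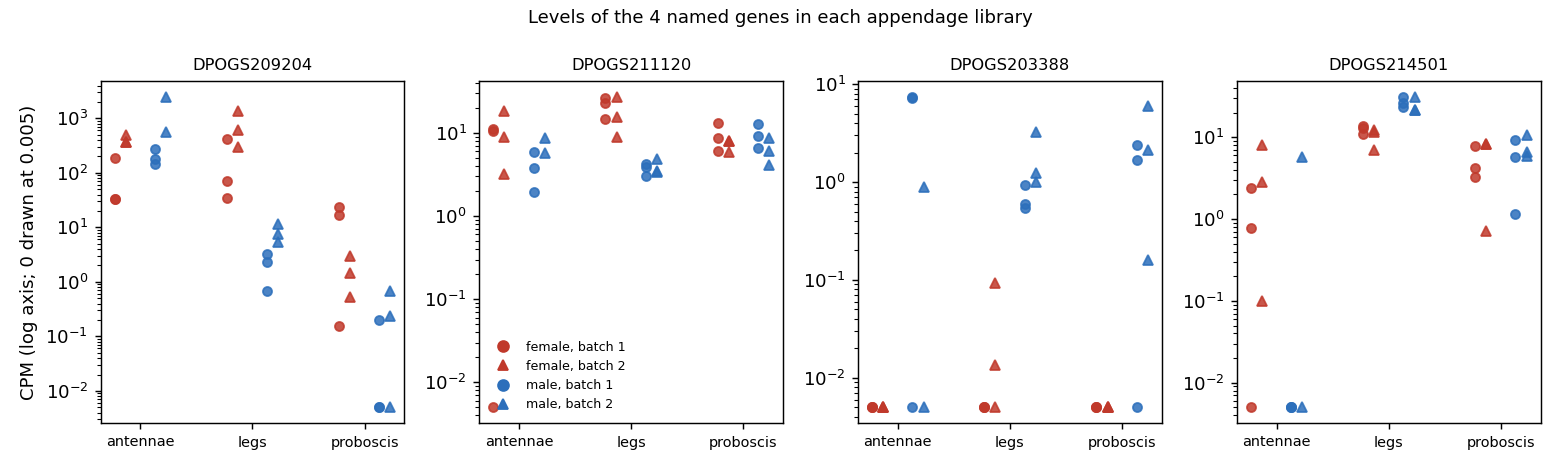
CPM of the 4 named genes in each library of antennae, legs and proboscis (log axes, 0 drawn at 0.005), by sex and batch. Levels were scaled within each tissue and not between tissues. DPOGS209204 is lower in male legs than in every antennal library, and DPOGS203388 has no count in female antennae or proboscis.

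The 2 batches held different animals and each gave the sex comparison. In batch 1 edgeR called 2 genes (0.0169%), both lower in females. In batch 2 those genes had log2 fold changes of -1.15 (unadjusted p = 0.377) and -0.37 (0.606). In batch 2 edgeR called 0 genes and DESeq2 27, against 222 by DESeq2 in batch 1. In batch 1 edgeR called 8 genes without female 18, 3 without female 27, 1 without male 15 and 0 without male 13, male 20 or female 25 (884, 709 and 710 at an unadjusted p below 0.05). At an unadjusted p below 0.05 there were 1138 genes (9.64%) in batch 1 and 378 (3.2%) in batch 2. Over all 11804 genes, 5986 (50.7%) had the same direction in both batches. Of the 378 genes of batch 2, 207 (54.8%) had the same direction in batch 1. Of the 1138 genes of batch 1, 693 (60.9%) had the same direction in batch 2, 56 of them also with an unadjusted p below 0.05, and 25 of the 1138 had such a p in the opposite direction. Of the 56, females had the higher level in 36 and the lower level in 20. Across all 11804 genes the log2 fold changes of the batches had a Pearson r of 0.0675 and a Spearman rho of 0.0414, given as a description. The test of sex by batch called 0 genes by edgeR, with 599 (5.07%) at an unadjusted p below 0.05, and 16 by DESeq2. The spread between animals differed between batches, with a median SD of log2 CPM of 0.438 and 0.407 in females and males of batch 1 and of 0.561 and 0.649 in batch 2.

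**Figure D5:**
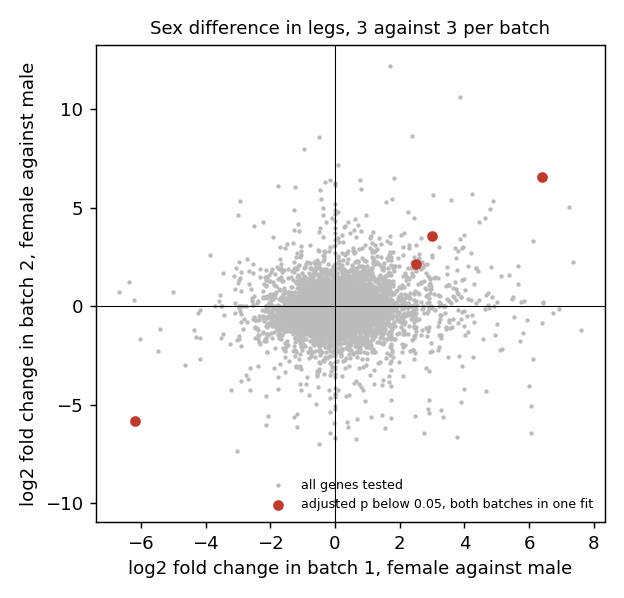
Fitted log2 fold change of female against male legs in batch 1 and in batch 2 (3 against 3 animals each), for 11804 genes. The points form a round cloud (Pearson r 0.0675), and the 4 called genes (red) lie far from 0 with the same sign in both batches.

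Genes whose libraries separated fully by sex were few in each direction. In 19 genes (0.161%) all 6 females lay above all 6 males, and in 23 (0.195%) all 6 males lay above all 6 females. Some genes separate in this way even with no sex difference. How many was not computed, so the 42 genes are not read as an excess. At least 2-fold differences were fitted for 12 (0.102%) and 13 (0.11%), at least 4-fold differences for 7 and 2, and of the 42 edgeR called 4 and DESeq2 24. Detection that went with sex was rarer still. Among 15130 rows, 1 had counts in all 6 female and none in the male leg libraries, and 0 had the reverse. With counts in at least 4 libraries of a sex and none in the other there were 20 of these rows for females and 3 for males, with at most 43 and 26 counts in a library. Female leg libraries had a mean of 9480 genes expected in a draw of 600000 counts, and male ones 9228 (adjusted exact permutation p = 0.42). The part of this in the 20 against 3 rows was not tested.

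The precision limits what the remaining genes show. For 5216 genes (44.2%) the 95% interval of the female against male difference lay within 2-fold in either direction, and for 9493 (80.4%) within 4-fold. By the mean in the higher sex, the share of genes with an interval within 2-fold was 0.673% below 1 CPM, 29.4% from 1 to 10 CPM, 67.4% from 10 to 100 CPM and 51.3% at 100 CPM or more. The intervals of the other genes reached beyond 2-fold in at least 1 direction, because they were wide or because they lay away from 0, as in the 4 called genes.

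In the fit of both batches, abundant genes tended to the lower level in females. Of 1356 genes at 100 CPM or more in the higher sex, 60.7% had a lower fitted level in females, against 49% of the 10448 less abundant genes. The median log2 fold change of the abundant genes was -0.12 (-0.13 with DESeq2 size factors or upper-quartile scaling). Of them 147 were lower and 49 higher at an unadjusted p below 0.05, against 225 and 312 of the 10448 less abundant genes. In batch 1 alone these counts for abundant genes were 199 and 72, and in batch 2 they were 23 and 29, so by this p the lean was in batch 1 only. The share of abundant genes lower in females was 60.9% in batch 1 and 58.6% in batch 2. For the less abundant genes it was 44.2% and 52.2%. The 10 most abundant genes of a library took 19.7 ± 2.95% of counts in females and 23.7 ± 3.93% in males (SD, n = 6 each). The means were 20.5% and 26.4% in batch 1 and 18.9% and 21.1% in batch 2. Within each batch every male lay above every female. In batch 2 the gap was very small, with female 3, the highest, at 18.947% and male 12, the lowest, at 18.959%. An exact 2-sided permutation test within batches gave p = 0.005, the smallest that its 400 arrangements allow, and 0.035 after adjustment over 7 library measures. That smallest value needs every male above every female within each batch, so it rests on the small gap in batch 2. With labels permuted over all 12 animals the adjusted p was 0.343, and for the 50 most abundant genes within batches it was 0.245. The other 6 measures (total counts, genes expected in a draw of 600000 counts and 4 principal components) had adjusted exact p-values of 0.42 to 0.9. Of the 22 genes that were among the 10 most abundant of any leg library, 17 had a lower fitted level in females and 12 of these in both batches. Of the 22, edgeR called 0 (smallest adjusted p 0.788) and DESeq2 0, 2 had an unadjusted p below 0.05, and their median log2 fold change was -0.61. The part of tissue composition or RNA quality in this share was not tested.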

How the data were processed

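RNA was sequenced from stranded messenger RNA libraries made from 100 ng of total RNA, per the labels' protocols. Raw counts of reads were deposited for 15130 gene models, with 1 column per library. The tools named are HISAT2 2.0.5, featureCounts 1.5.2, limma and FastQC 0.11.5, per the submitters' processing notes. Not given in the sources used here are the genome build, the annotation release and how counting treated strand and multiply mapped reads, so near-identical, overlapping and antisense genes are uncertain. The antennae of male 2 were not analysed here.

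The analysis used edgeR 4.0.16 in R 4.3.3. Filtering with filterByExpr, grouped by sex and tissue, kept 11804 genes and removed 3326 rows with 0.0254% of leg counts. The leg comparison used TMM factors and a quasi-likelihood fit of the 12 leg libraries with sex and batch as terms, tested with glmQLFTest. P-values were adjusted by the Benjamini-Hochberg method over all genes tested, with 0.05 as the threshold for a call. Standard errors were derived from the F statistic. The tests against other tissues came from all 35 libraries, fitted with a mean per group and a batch term. They had no term for the animal, so they took the tissues of an animal as independent, except where the animal is named as a block.

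The quasi-likelihood fit used the default estimate of dispersion of the installed edgeR. It had been planned as an alternative to the newer estimate, which was wrongly taken for the default. The exchange was made after both counts had been seen (4 called genes with the default, 11 with the newer estimate), and both counts are reported. The rule for printing identifiers was applied to the default fit; DPOGS214501 was reached by it as the second lower gene, and another gene would have been under the newer estimate.

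Alternatives were other scalings, filters and tools (DESeq2 1.42.0, voom of limma 3.58.1), no batch term, thinning to the shallowest library, and leaving out each animal. Library measures were compared by exact permutation of sex within batch, with a log2 CPM prior count of 2 for the principal components. No 2 leg libraries of a sex agreed within sampling noise (smallest chi-square per gene 46.5), so each counted as 1 animal. The comparison, the naming rule and the gene lists were chosen with earlier results of these data known. Floors cover counting error only. Libraries of the same animal are paired across tissues: around the means of group and batch, leg deviations correlated across genes with those of antennae at a median of 0.158 (8 of 11 animals above 0.1) and with those of proboscis at 0.33 (10 of 12). Figures were drawn with matplotlib 3.10.9.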

Additional observations from a re-analysis of the deposited data

Results flagged for a closer look

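In 8 of 36 groups of libraries looked at, 1 library stood apart from the rest of its group by Dixon's criterion. Chance meets this criterion in about 1 group in 20 only where values are normally distributed. Several groups here held many zeros or mixed batches of unlike depth, so the 8 cannot be read against that rate. DPOGS209204 reached 2510 CPM in the antennae of male 16, against 557 in the next male. In male proboscis DPOGS209204 was highest in male 2, at 0.671 CPM. DPOGS211120 was highest in the proboscis of female 27, at 13.3 CPM, with 8.59 in the next female. In legs, DPOGS203388 stood apart in female 3 (0.0928 CPM, 4 counts) among females and in male 2 (3.23 CPM, against 1.23 in the next) among males. DPOGS214501 stood apart in the antennae of female 11 (8.08 CPM, 5 counts) and of male 16 (5.75 CPM, 13 counts, with 0 in the other males). The leg library of male 12 had the largest total, 116578024 counts, against 50744324 in the next male.

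The sex difference of DPOGS209204 differed between legs and antennae by 8.01 on the log2 scale (edgeR adjusted p = 0.0176). The antennal library of male 16 enters this value, and without animal 16 the difference was 7.47 with an adjusted p of 0.108.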

How the results depend on the processing

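The leg comparison called 4 genes. It called 68 with DESeq2 (41 higher and 27 lower in females), 11 with edgeR's newer dispersion estimate, 7 with voom and 1 without the batch term. It called 1 in the fit of all libraries, where scaling, spread and batch term are shared over tissues, 2 in batch 1 alone and 0 in batch 2 alone. The change to the default estimate was made after both edgeR counts were seen. The newer estimate and TMM factors taken before the filter (4 genes) were added as alternatives after seeing the data. The other scalings, filters, robust estimation and thinning gave 3 to 5. Leaving out single animals gave 0 to 4. The fold changes of the 4 named genes kept their direction in every alternative run that tested them. The filter on the leg libraries alone removed DPOGS203388, so that run gave no value for it. DPOGS209204 and DPOGS211120 stayed called in 11 of 12 other settings with both batches, DPOGS203388 in 9 and DPOGS214501 in 1 (DESeq2). The causes of these differences were not tested.

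The interaction with antennae called 1 gene, 18 with DESeq2 and 0 to 3 as animals were left out (0 without 11, 15 or 16, 3 without 13, 2 without 20). That with proboscis called 0, and 4 with DESeq2. With the animal as replicate block the counts were 1 and 0. No paired analysis was possible within legs because the females and males are different animals. Sex by batch called 0 genes, and 16 with DESeq2. Batch 1 alone called 2 genes, 222 with DESeq2 and 0 to 8 without single animals. Batch 2 alone called 0, 27 with DESeq2 and 0 to 1 without single animals. The adjusted p of the share of the 10 most abundant genes (0.035) was 0.343 with labels permuted over all animals and 0.245 for 50 genes.

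Genes below 1 CPM were the least resolved: 0.673% of them had an interval within 2-fold. Sex and gravidity cannot be told apart, and no gene family was examined.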
